A study of Homo sapiens with 4 samples.

Results

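The genes described here are 10 endothelial genes linked to the SOXF transcription factors, CD34, KDR, FLT1, TEK, TIE1, ENG, CDH5, PECAM1, ESAM and ROBO4, followed in a lung cancer line that is not endothelial. They were taken by name, and every probe of them was kept however dim, which gave 15 probes for 10 of the 20046 genes named on the array. CD34 had 5 probes, TEK had 2 and each of the other genes had 1. The samples were H23 cells, an established human lung cancer line, labelled either as SOX7 overexpressing cells (2 arrays) or as GFP overexpression control cells (2 arrays), so both groups carried an introduced gene. RNA was taken at near confluence and read on Illumina HumanHT-12 v4 BeadChips. Vector, promoter, and whether the cells were a clone or a pool are not stated in the labels. All values below are log2 intensities, and all differences are SOX7 minus control on that scale.

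SOX7, SOX17 and SOX18 form the SOXF subfamily, DNA-binding proteins known for their part in the formation of blood and lymphatic vessels. In endothelial cells they act with ETS factors on genes for vessel receptors and junction proteins. CD34 is a sialomucin on the surface of haematopoietic progenitors and of capillary endothelium. KDR and FLT1 are receptors for vascular endothelial growth factors, TEK and TIE1 form the angiopoietin receptor pair, and ENG is a co-receptor for ligands of the TGF-beta and BMP family. CDH5, PECAM1 and ESAM hold endothelial cells together at their junctions, and ROBO4 is a guidance receptor of vessels.

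The stretches of DNA just before the transcription start are printed for CD34, the gene that rose, for ENG, the gene next to the threshold, and for KDR, a classical receptor gene whose probe did not pass. They are the 250 bases before the start from RefSeq on GRCh38.p14, written 5′ to 3′ on the gene's own strand, and capitals mark matches to the letters searched. CD34 lies at chr1:207911126-207911375, ENG at chr9:127854659-127854908 and KDR at chr4:55125596-55125845, all on the minus strand.
CD34: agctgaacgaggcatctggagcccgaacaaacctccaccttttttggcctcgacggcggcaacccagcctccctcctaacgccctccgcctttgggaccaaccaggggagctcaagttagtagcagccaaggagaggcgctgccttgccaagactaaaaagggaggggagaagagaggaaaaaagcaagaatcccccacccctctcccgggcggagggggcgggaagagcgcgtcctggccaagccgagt
ENG: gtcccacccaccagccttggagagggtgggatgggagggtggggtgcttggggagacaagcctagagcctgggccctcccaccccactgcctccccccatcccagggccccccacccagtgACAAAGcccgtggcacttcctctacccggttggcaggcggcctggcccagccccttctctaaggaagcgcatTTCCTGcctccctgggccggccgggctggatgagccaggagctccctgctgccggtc
KDR: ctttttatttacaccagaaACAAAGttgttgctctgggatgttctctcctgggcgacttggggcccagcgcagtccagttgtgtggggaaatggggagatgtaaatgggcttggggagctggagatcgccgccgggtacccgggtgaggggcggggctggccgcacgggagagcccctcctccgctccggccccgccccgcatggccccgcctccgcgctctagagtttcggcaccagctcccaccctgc

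Both strands were searched for ACAAAG as a first form of the SOX site, for ACAATG as a second and for AACAAT as another, the last 2 of which can overlap each other. For the ETS site the letters searched were CAGGAA, a form of that site. Other forms of the SOX and ETS sites were not searched, so a window without these letters may still hold such a site. Entries were found for 7 of the 10 genes, 8 windows in all because TEK has 2. The CD34 window held none of these letters. ENG held ACAAAG 129 bases before the start and CAGGAA, read on the opposite strand, 57 bases before it, and KDR held ACAAAG 231 bases before it. Of the others, 1 TEK window held AACAAT and the other held ACAAAG and CAGGAA, ROBO4 held CAGGAA, and TIE1 and FLT1 held none. In all, 4 of 8 windows held a SOX form and 3 held the ETS form. The 2 TEK windows overlap and both held a SOX form, so TEK makes up 2 of those 4. Among 35116 promoter windows of the same length, 25.6% held at least 1 of the 3 SOX forms and 24.1% the ETS form. A match is a description of the letters and says nothing of binding.

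Each array carried 48107 probe values, and on all of them the median was 6.26 and the 75th percentile 7.15. Pairs of arrays within a group correlated at 0.995 across all probes, and arrays of different groups at 0.990. The SOX7 probe with the higher signal read 6.53 and 6.78 in SOX7 arrays and 6.18 and 6.45 in control arrays, so the groups did not overlap, but the difference of 0.34 did not pass (limma adjusted p = 0.166). A second SOX7 probe differed by 0.0039, SOX17 by 0.026 and SOX18, which averaged 9.87 in SOX7 arrays and 10.004 in control arrays, by −0.13, none past the threshold. Whether these probes can see the introduced SOX7 transcript is not known here, so they do not check the labels. Of 8 lung epithelial markers, KRT8 and KRT18 lay above the 75th percentile on every array, EPCAM read 6.45 to 6.69 at its brightest probe, and NKX2-1, SFTPB and CDH1 lay at 6.26 or below on every array.

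CD34 was the only member to pass the threshold in the fit over all probes. On its brightest probe (ILMN_2341229, probe 1) it read 8.53 and 8.72 in SOX7 arrays, against 6.26 and 6.35 in control arrays. Both SOX7 arrays stood above the 75th percentile and both control arrays at the array median, with no overlap. The means were 8.63 ± 0.13 in SOX7 arrays and 6.30 ± 0.065 in control arrays (SD, n = 2 each), a difference of 2.32 (SE 0.11, 95% confidence interval 2.09 to 2.55; limma adjusted p = 7.10e-09), or 4.997-fold. As the control level is near the median and no background level was used, this fold is not bounded by a background level.

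A second CD34 probe (ILMN_1732799, probe 2) was also higher, by a smaller amount. It read 7.12 and 7.04 in SOX7 arrays, against 5.99 and 5.81 in control arrays, and the groups did not overlap. The difference was 1.18 (SE 0.11, 95% confidence interval 0.95 to 1.41; limma adjusted p = 9.50e-06), or 2.27-fold. The control arrays read below the array median here, so this fold too is not bounded by a background level.

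The other 3 CD34 probes stayed below 6.35 on all 4 arrays. Probe 3 (ILMN_1694249) read 6.09 and 6.15 in SOX7 arrays and 6.32 and 6.34 in control arrays, a difference of −0.21 that did not pass (95% confidence interval −0.42 to 0.0083; limma adjusted p = 0.362). Probe 4 (ILMN_1683479) read 5.96 and 6.15 in SOX7 arrays and 5.89 and 6.08 in control arrays, and probe 5 (ILMN_2257587) read 5.72 and 5.75 in SOX7 arrays and 5.77 and 5.87 in control arrays. Their differences were 0.074 and −0.078. The upper confidence bounds of these 3 probes, at 0.0083, 0.31 and 0.14, all lay below the lower bound of 0.95 on probe 2. Signal at the height of these 3 probes was not separated from background, so the bounds hold for intensity and not for RNA. The annotation assigns all 5 probes to CD34, and where each lies in the transcripts of the gene is not known here. Averaged over the 5 probes, CD34 differed by 0.66 (limma adjusted p = 0.00132, the highest over its 17 alternatives), against 2.32 on probe 1. In bulk RNA, more cells with CD34 and more CD34 RNA per cell cannot be told apart.

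**Figure D1:**
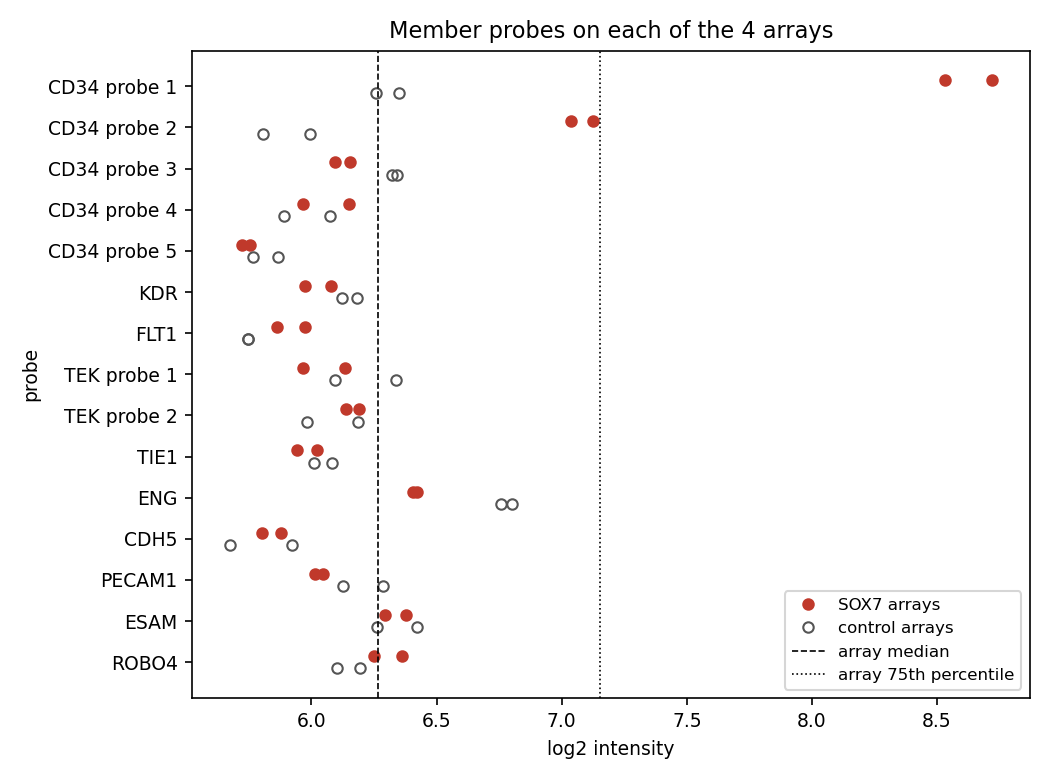
Log2 intensity of each of the 15 member probes (rows) on each array, filled red points for the 2 SOX7 arrays and open grey points for the 2 control arrays, with the array median (6.26, dashed) and 75th percentile (7.15, dotted). CD34 probes are numbered by mean brightness; probes 1 and 2 are far higher in SOX7 arrays, while the other probes except ENG lie between 5.68 and 6.42 (the 2 FLT1 control points coincide at 5.75).

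Counted by its brightest probe, 1 of the 10 genes rose and 0 fell, where 6.55% of the 20046 named genes passed by the same rule (3.05% higher and 3.5% lower). Counted by probe, 2 of 15 passed, both of CD34 and both higher, against 3.92% of all 48107 probes (1.84% higher and 2.08% lower), and 3 of 15 had an unadjusted p under 0.05, against 14.8% of all probes. The SOX7 and control arrays did not overlap for 9 of the 15 member probes, against 43.9% of all probes. The median difference over the 10 genes was −0.037, and over all named genes 0.0022.

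Among the receptors, ENG was next to the threshold. It read 6.42 and 6.41 in SOX7 arrays, against 6.80 and 6.76 in control arrays. The SOX7 arrays were both lower, and the spread within each pair was small, at 6.41 ± 0.0094 in SOX7 arrays and 6.78 ± 0.031 in control arrays (SD, n = 2 each). The difference was −0.37 (SE 0.10, 95% confidence interval −0.58 to −0.15) and did not pass over all probes (limma adjusted p = 0.0585). It passed when probes dimmer than the median were left out (adjusted p = 0.0205), and its adjusted p ran from 0.0116 to 0.229 over 16 alternatives.

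The growth factor receptors of endothelium lay below the array median on every array. KDR, the main signalling receptor for VEGFA, read 6.08 and 5.97 in SOX7 arrays and 6.12 and 6.18 in control arrays, a difference of −0.13 (95% confidence interval −0.35 to 0.093). FLT1, a high-affinity receptor that also occurs as a soluble decoy, read 5.98 and 5.86 in SOX7 arrays and 5.75 and 5.75 in control arrays, a difference of 0.17 (−0.048 to 0.39). Neither pair of groups overlapped, KDR being lower and FLT1 higher in SOX7 arrays, and neither difference passed (limma adjusted p = 0.638 and 0.488).

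The angiopoietin receptors showed no call. The brighter TEK probe read 6.13 and 5.97 in SOX7 arrays and 6.34 and 6.09 in control arrays, a difference of −0.16 (95% confidence interval −0.41 to 0.079). The dimmer one read 6.14 and 6.19 in SOX7 arrays and 5.98 and 6.19 in control arrays, a difference of 0.079 (−0.15 to 0.31). The 2 TEK probes had opposite signs and the groups overlapped on both. TIE1, an orphan receptor that pairs with TEK, read 6.02 and 5.94 in SOX7 arrays and 6.08 and 6.01 in control arrays, which overlap, with a difference of −0.066 (−0.28 to 0.15).

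None of the junction genes passed. CDH5, the gene of VE-cadherin, read 5.80 and 5.88 in SOX7 arrays and 5.92 and 5.68 in control arrays, a difference of 0.044 (95% confidence interval −0.19 to 0.28). PECAM1, the gene of CD31, read 6.05 and 6.01 in SOX7 arrays and 6.12 and 6.28 in control arrays, a difference of −0.17 (−0.397 to 0.050). The groups overlapped for CDH5 and not for PECAM1, which was lower in SOX7 arrays. ESAM, an immunoglobulin-type adhesion molecule of endothelium and platelets, read 6.29 and 6.38 in SOX7 arrays and 6.42 and 6.26 in control arrays. Its difference of −0.0075 (−0.23 to 0.22) was the smallest of the 15 in size. The guidance receptor gene ROBO4 read 6.25 and 6.36 in SOX7 arrays, both above the 6.19 and 6.10 of the control arrays, with a difference of 0.16 (−0.064 to 0.38; limma adjusted p = 0.540).

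Taking the 12 member probes other than ENG that did not pass, the confidence intervals reached no further than −0.42 and 0.39, so that a change over 1.34-fold in intensity lay outside each interval. All 12 read between 5.68 and 6.42. Signal at this height was not separated from background here, so the intervals bound the change in intensity and not in RNA. Standard errors over the 15 probes ran from 0.10 to 0.11.

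**Figure D2:**
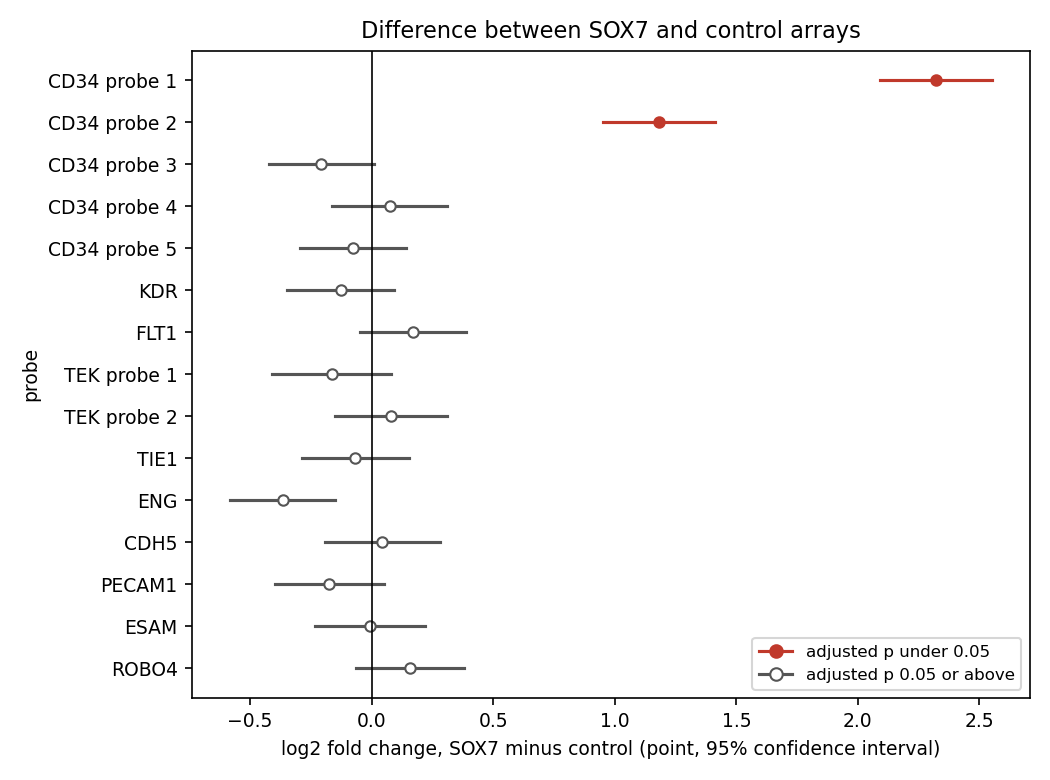
Log2 fold change (SOX7 minus control, x axis) of each of the 15 member probes (rows) with its 95% confidence interval from limma, red where the adjusted p is under 0.05. The intervals of CD34 probes 1 and 2 lie above 0.95, the ENG interval lies below 0 although its adjusted p is 0.0585, and the other 12 include 0.

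The 5 named genes nearest to CD34 probe 1 over the 4 arrays, by Euclidean distance after each probe's own mean was removed, were ZNF365 (distance 0.19), ALDH1A1 (0.21), HAS3 (0.27), RTN1 (0.32) and STEAP1 (0.38), out of 20045 searched. ZNF365, a zinc finger gene, read 9.29 and 9.45 in SOX7 arrays and 7.20 and 7.27 in control arrays. ALDH1A1, a retinaldehyde dehydrogenase, read 8.81 and 9.13 in SOX7 arrays and 6.41 and 6.53 in control arrays. With 4 arrays in 2 groups this measure mainly picks genes with a like difference between groups, and these had differences of 1.96 to 2.50 against 2.32 for CD34. None of the 5 is among the endothelial genes or vascular lists used here.

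**Figure D3:**
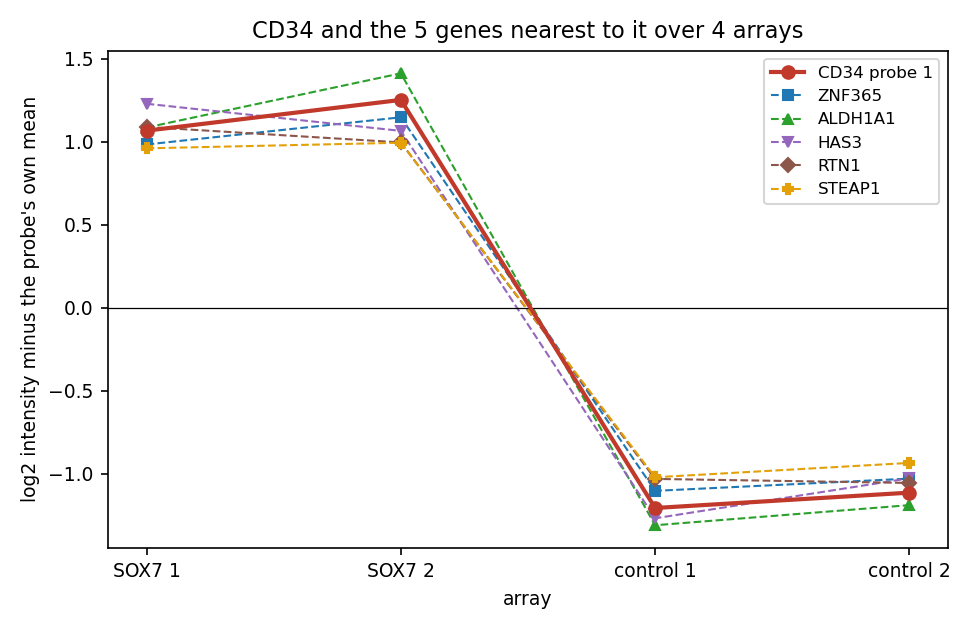
Log2 intensity minus the probe's own mean over 4 arrays (y axis) for CD34 probe 1 and its 5 nearest genes on each array (x axis, SOX7 arrays left, control arrays right). Lines only join the points of 1 gene; all 6 genes are high on both SOX7 arrays and low on both control arrays.

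Genes that work with the members were taken from 5 lists of 78 measured genes, of which 7 rose and 2 fell by their brightest probe, where 3.05% of all named genes rose and 3.5% fell. The counts for each list below are to be read against the same shares. Among 13 ligands of these receptors, 1 rose and 1 fell, with a median of −0.012. VEGFC, a growth factor of lymphatic vessels, read 8.28 and 8.06 in SOX7 arrays and 8.83 and 8.93 in control arrays, and fell by 0.71 (SE 0.11; limma adjusted p = 0.00128). BMP6, a ligand of the BMP family, read 8.56 and 8.59 in SOX7 arrays and 7.96 and 8.06 in control arrays, and rose by 0.57 (adjusted p = 0.00396). VEGFA, the ligand of KDR and FLT1, differed by −0.41 and lay next to the threshold (adjusted p = 0.0510), while its other 2 probes differed by −0.14 and 0.13. VEGFB differed by −0.28 (adjusted p = 0.205).

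Of 10 partner receptors, 0 rose and 0 fell by limma (1 had an unadjusted p under 0.05, as had 20.1% of all named genes), with a median of −0.054. At their brightest probes the semaphorin and VEGF co-receptors NRP2 and NRP1 differed by −0.25 and −0.080, TGFBR1 by −0.26 and BMPR2 by −0.077. The dimmer NRP1 probe differed by 0.28 and the dimmer NRP2 probes by 0.20, 0.19 and −0.096, none past the threshold. The sign for NRP1 and NRP2 thus depends on the probe. The brightest NRP2 probe stood at 5.83 ± 0.16 in SOX7 arrays and 6.08 ± 0.11 in control arrays (SD, n = 2 each). The brightest BMPR2 probe stood at 9.07 ± 0.10 in SOX7 arrays and 9.15 ± 0.054 in control arrays (SD, n = 2 each).

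Of 20 transcription factors of endothelium, 3 rose and 0 fell, with a median of 0.10. ETS2, an ETS family factor, read 8.26 and 8.33 in SOX7 arrays and 6.32 and 6.42 in control arrays. This was a rise of 1.93 (SE 0.10, limma adjusted p = 2.67e-08) or 3.82-fold. The ETS2 control values were near the array median, so this fold is not bounded by a background level. MEF2C, a MADS-box factor of muscle and vessel development, read 7.56 and 7.57 in SOX7 arrays and 6.56 and 6.40 in control arrays, a rise of 1.09 (adjusted p = 1.54e-05). HHEX, a homeobox factor of early blood and vessel progenitors, read 8.03 and 8.23 in SOX7 arrays and 7.29 and 7.32 in control arrays, a rise of 0.82 (adjusted p = 2.66e-04). For none of the 3 did the groups overlap. Among the 17 factors that did not pass were ERG, FLI1 and TAL1, with differences of 0.15, 0.12 and −0.24. A second, dimmer probe of KLF4, a factor induced by blood flow, rose by 0.52 (adjusted p = 0.0234), while its brightest probe differed by 0.15.

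Of 29 other surface, junction and secreted genes of endothelium, 2 rose and 1 fell, with a median of 0.046. MCAM, the adhesion molecule CD146 of vessels and melanoma, read 6.24 and 6.08 in SOX7 arrays and 7.50 and 7.45 in control arrays, a fall to below the array median in SOX7 arrays. Its difference was −1.31 (SE 0.10; limma adjusted p = 2.63e-06). S1PR1, a receptor for sphingosine-1-phosphate, rose on both probes, by 0.47 (adjusted p = 0.0131) and 0.78 (adjusted p = 4.98e-04). PROCR, the endothelial protein C receptor, rose by 0.44 (adjusted p = 0.0290). The call of the brighter S1PR1 probe was lost without each of the 4 arrays in turn (adjusted p = 0.0514 to 0.0729), and that of PROCR without SOX7 replicate 2 (0.199) or control replicate 1 (0.178). Over 17 alternatives the adjusted p ran from 6.68e-04 to 0.0729 for that S1PR1 probe and from 0.00218 to 0.199 for PROCR. A dimmer CXCR4 probe rose by 0.48 (adjusted p = 0.0229) while the brightest, of the same chemokine receptor, differed by −0.32 (adjusted p = 0.115), so the direction for CXCR4 depends on the probe. ECSCR, an endothelial surface protein, differed by 0.38 (adjusted p = 0.0540), and its other 2 probes by 0.024 and 0.027.

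Of 6 genes of the CD34 family and its partners, 1 rose. PODXL, the gene of podocalyxin and a sialomucin relative of CD34, read 7.67 and 7.56 in SOX7 arrays and 7.10 and 7.19 in control arrays, a rise of 0.47 (SE 0.10; limma adjusted p = 0.0166). The remaining PODXL probes gave 0.24 and −0.11 without passing, and the call was lost for the mean of the 3 probes (0.20, adjusted p = 0.201) and without SOX7 replicate 1 (0.120) or control replicate 1 (0.107), in a range of 0.00101 to 0.201 over 17 alternatives. PODXL2, the third member of the family, differed by 0.20 (adjusted p = 0.420). The scaffold genes NHERF1 and NHERF2, whose products bind podocalyxin, differed by 0.20 and −0.15 (adjusted p = 0.394 and 0.564).

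**Figure D4:**
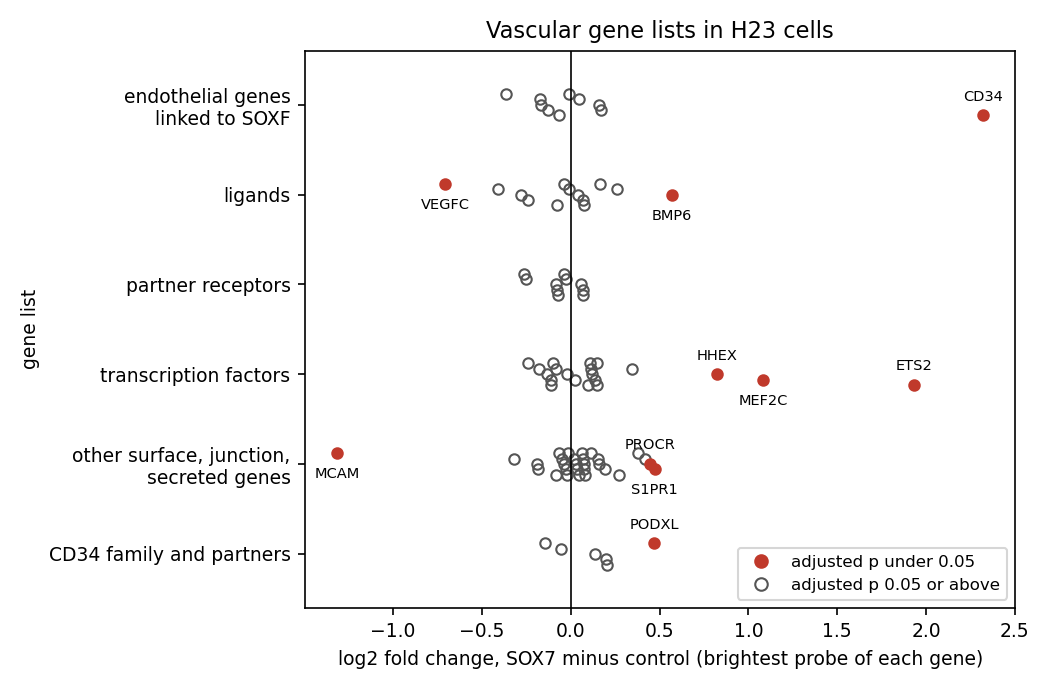
Log2 fold change (SOX7 minus control, x axis) of the brightest probe of each gene, with a row for the 10 endothelial genes linked to SOXF and for each of the 5 related lists; filled red points have an adjusted p under 0.05 and are named. CD34 at 2.32 and ETS2 at 1.93 lie furthest to the right and MCAM at −1.31 furthest to the left; vertical offsets within a row only separate the points.

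Markers of other cell types were set beside these values, and their counts are to be read against all named genes. Of those, 6.55% passed by limma, 3.05% higher and 3.5% lower, and 20.1% had an unadjusted p under 0.05. Of 10 endothelial markers, 7 of them members, 0 passed by limma and 0 had an unadjusted p under 0.05. None lay above the array median on every array, their values running from 5.45 to 6.42. CD34 and ENG are not in this marker list, so its count is no separate check on the members. VWF, the gene of von Willebrand factor, read 5.81 and 5.45 in SOX7 arrays and 5.77 and 5.86 in control arrays. The intensity summed over the 10 markers was 634.0 to 645.3 in SOX7 arrays and 649.6 to 667.4 in control arrays. Of 7 haematopoietic markers, 0 rose and 1 fell: PTPRC, the pan-leukocyte gene of CD45, read 5.93 to 6.23 in SOX7 arrays and 6.03 to 6.09 in control arrays, and the integrin gene ITGB2 fell by 0.93 (adjusted p = 5.91e-05). The summed intensity of the 7 was 678.6 to 693.5 in SOX7 arrays and 879.8 to 907.1 in control arrays. A sum mainly follows its brightest genes, here ITGB2, and the median difference over the 7 was 0.014. Of 8 fibroblast and mural markers, LUM rose by 0.52 (limma adjusted p = 0.00734) with a second probe at 0.044. The median difference over these 8 was 0.019, and their summed intensity was 751.5 to 796.3 in SOX7 arrays and 691.2 to 723.0 in control arrays. Of 8 lung epithelial markers, KRT18 rose by 0.45 (limma adjusted p = 0.0220), and the median difference was 0.13. The sum, in which KRT18 and KRT8 are the brightest, was 1263 to 1282 in SOX7 arrays and 1066 to 1085 in control arrays. Whether these sums bear on the CD34 values was not tested.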

How the data were processed

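Per the labels, polyA RNA of 2 SOX7 and 2 control samples of H23 cells was biotin-labelled and hybridised to HumanHT-12 v4 BeadChips. The authors deposited log2 intensities for 48107 probes. After sorting, the columns agreed to within 0.000683, which is how quantile normalized arrays look. The authors' software and any background step are not stated in the labels, and no detection measure was used. The platform's annotation gave 1 gene for 30113 probes, several for 8 and none for 17986; 30074 gene identifiers were found in RefSeq (GRCh38.p14). The number of arrays limits the precision, and as the labels name no separate cultures, the p-values rest on a spread that may be technical.

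All probes were fitted with limma 3.58.1 (R 4.3.3) as a two-sided test with 14.6 moderated degrees of freedom and Benjamini-Hochberg adjustment over the whole table, a threshold of 0.05 and no intensity filter, because the members include dim probes. The method was tested on simulated data drawn from its own model, so this does not check whether that model holds for these arrays. An exact permutation test of 2 against 2 arrays cannot go below p = 0.333 and was not used. A gene in a list was counted by its brightest probe. The text names all members, up to 4 genes with the smallest p per list, those that complete counts of 5 or fewer, and the SOXF genes. It also names ERG, FLI1, TAL1, KLF4, CXCR4, VWF, PTPRC, EPCAM, NKX2-1, SFTPB, CDH1 and the neighbours of members, chosen after their values were seen. Members and lists were chosen with earlier results of these data known. Alternatives changed the filter, the probes fitted, the probe summary, an offset, the variance prior, a replicate block, centring, the threshold, a minimum fold, neighbouring genes and each array in turn. Samples of H1299 and PC14 cells, also named by the submitters, were not analysed here.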

Additional observations from a re-analysis of the deposited data

How the results depend on the processing

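The rise of CD34 on probes 1 and 2 passed under every alternative that kept the probe, with differences of 2.23 to 2.41 and of 1.09 to 1.28 when each array was left out in turn. Probe 2 was not tested at the 75th percentile filter, where 1 member probe passed. The number of member genes past the threshold was 2 in place of 1, the second being ENG, with a filter at the median, with probes that carry 1 gene, with the brightest probe of each gene combined with the median filter, with the mean of each gene's probes, with an offset of 16, with the trend and robust prior, with the replicate block and at a threshold of 0.10. In these settings 5.59% to 18.8% of all features tested passed, against 3.92% of all probes in the main fit. ENG did not pass when any 1 array was left out (−0.39 to −0.34, adjusted p = 0.148 to 0.229). The other 12 member probes passed under none of the alternatives that kept them (166 values, lowest adjusted p = 0.202), most of them being too dim for the intensity filters, and their sign changed on leaving out 1 array for CD34 probe 4 (−0.018 to 0.17), CDH5 (−0.078 to 0.17), ESAM (−0.087 to 0.072) and the dimmer TEK probe (−0.025 to 0.18).

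Of all probes 1885 passed, against 2848 of 24054 with the median filter, 3485 of 12027 with the 75th percentile filter, 3263 with the trend and robust prior, 1029 at a threshold of 0.01, 741 with at least a 1.5-fold change and 1184 to 1372 without 1 array. List genes past the threshold numbered 9. Their number was 5 with at least a 1.5-fold change, 6 at a threshold of 0.01 and 13 with the trend and robust prior. Replicate numbers are shared only by name: deviations of same-numbered arrays correlated at −0.00058. With the replicate block 2689 probes passed. No background level was used, so what lies near the array median cannot be read as present or absent.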

Other observations

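The genes next to the members on their chromosomes were described by the 5 nearest measured genes on each side. Around CD34 on chromosome 1, 0 of 10 neighbours passed by limma and 0 had an unadjusted p under 0.05, and their differences ran from −0.25 to 0.13. They include the complement receptor genes CR1 (0.097) and CR2 (−0.055) and the semaphorin receptor gene PLXNA2 (0.13). With the median change of the genes in a window around it removed, CD34 probe 1 differed by 2.26.

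Around ENG on chromosome 9, 3 of 10 neighbours passed and all 3 were lower, where 6.55% of all named genes passed. Around CDH5 it was also 3 of 10 (GOT2, CDH11 and CMTM4), around KDR 2 (CHIC2 and NMU), around TIE1 2 (HYI and PTPRF), around ESAM and ROBO4, which share most of their neighbours, 1 (ROBO3), and around PECAM1, FLT1 and TEK 0 by limma, with 0, 2 and 1 at an unadjusted p under 0.05. AK1, which encodes an adenylate kinase, read 8.02 and 7.97 in SOX7 arrays and 8.56 and 8.64 in control arrays, a difference of −0.60 (limma adjusted p = 0.00250). The sialyltransferase genes ST6GALNAC4 and ST6GALNAC6 differed by −0.64 (adjusted p = 0.00435) and −0.52 (adjusted p = 0.0140). The other 7 did not pass, among them CDK9 (0.070) and FPGS (0.020). The median over such a window around ENG was 0.012, and ENG differed by −0.38 with it removed (adjusted p = 0.0519).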
